A study of Mus musculus with 10 samples.

Results

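The genes described here keep mitochondrial proteins folded and turned over, shape the mitochondrial network and maintain mitochondrial DNA (mtDNA). The list holds 44 genes in 7 sub-functions, chosen by name. Each gene was read from the transcript cluster (a group of array probes for 1 transcript region) with the highest mean among those annotated with that gene symbol alone. By that rule 42 of the 44 were measured, of 22180 genes in the series with such a cluster. Phb and Bnip3l have their probes in clusters that also carry another gene symbol, so no value is given for them. All 42 measured genes passed the filter on low levels (mean log2 level of 3.98 or more).

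RNA from whole liver of male mice at 4 weeks of age was hybridised to Affymetrix mouse gene arrays, 10 in all, for 3 groups. The tested animals had been exposed to knockdown of Sod2, the superoxide dismutase of the mitochondrial matrix, before birth, and the question was what differs in their liver weeks later. In 3 livers the genotype was Rosa26-rtTA + SOD2 shRNA 1, a short hairpin RNA switched on by rtTA, a doxycycline-dependent transcription factor placed at the Rosa26 locus. In 3 livers it was Rosa26-rtTA + SOD2 shRNA 2, a second hairpin, and the 4 control livers came from littermates with Rosa26-rtTA and no hairpin. All groups thus carried rtTA. Pregnant dams ate chow with doxycycline at 625 mg/kg to cover days 0 to 12.5 of gestation, and RNA was prepared from 25 mg of each liver. The 6 hairpin livers are called adapted, the word used in the series title. Each hairpin is represented by 1 line. Of the controls, 1 was a littermate of the shRNA 1 cohort and 3 were littermates of the other cohort, without a label for which is which, so hairpin and cohort cannot be told apart. Apart from those littermate counts, the samples are numbered without a statement that each is a separate animal. The p-values thus rest on sample-to-sample spread, whose biological and technical parts cannot be told apart.

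Nearly all mitochondrial proteins are made in the cytosol, pass through translocases of the outer and inner membrane, lose their targeting sequence to the processing peptidase and are folded by chaperones of the matrix. Proteases such as LONP1, the CLPXP complex and the AAA proteases of the inner membrane remove damaged or unassembled proteins. The network is joined by mitofusins and OPA1, divided by the dynamin DRP1 and pruned by mitophagy, while its own small genome is copied by a dedicated polymerase, helicase and single-strand binding protein. In hepatocytes, which are rich in mitochondria, many of these genes respond to mitochondrial stress.

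The 10 arrays were alike, with a median log2 level of 4.06 to 4.17 and a correlation between any pair of 0.981 to 0.992 over genes. Their small number limits precision throughout. The 8 hepatocyte markers were all above the level filter, with a mean log2 level of 11.93 to 12.14 in the 10 arrays, and 0 of 4 neutrophil markers were. All markers of macrophages (7 of 7), sinusoidal endothelium (6 of 6), stellate cells (6 of 6) and skeletal muscle or heart (5 of 5) were also above it. Those of skeletal muscle or heart were not far above the filter, with a mean log2 level of 4.47 to 5.09, against 7.92 to 8.25 for stellate cells. Sod2 itself was at log2 10.37 ± 0.09 (SD, n = 6) in adapted livers and 10.38 ± 0.08 (SD, n = 4) in control livers, with all 10 arrays between 10.24 and 10.49. In bulk tissue, fewer cells of a type and less RNA per cell cannot be told apart.

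None of the 42 genes passed an adjusted p of 0.05 in limma in any of the 4 comparisons made, and none passed at 0.1. Among the 13308 genes tested, the share that passed 0.05 was 0.00751% for adapted minus control, 0% for shRNA 1 minus control, 0.00751% for shRNA 2 minus control and 0.015% for shRNA 1 minus shRNA 2, so the count of 0 among 42 members is near the background. At an unadjusted p under 0.05, adapted minus control had 1 member higher (Dnm1l) and 0 lower, beside 4.86% of all genes higher and 3.51% lower. For shRNA 1 minus control it was 1 higher (Dnm1l) and 1 lower (Spg7), beside 4.57% and 3.32% of all genes. For shRNA 2 minus control it was 0 higher and 1 lower (Mief1), beside 4.14% and 3.46%. Between the hairpins it was 0 in either direction, beside 3.32% higher and 2.7% lower. The comparisons with control share the same 4 arrays.

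The intervals bound how large a difference could be. In adapted minus control the members' differences ran from -0.18 (Clpx) to 0.19 (Dnm1l) on the log2 scale, with standard errors of 0.06 to 0.23 and a smallest adjusted p of 0.521 in limma. For 41 of the 42 genes the whole 95% confidence interval of the difference lay within 0.5 log2 units of 0, a 1.41-fold change. Clpx was the exception, with an interval from -0.68 to 0.32. The median difference of the members was 0.02, with 26 of 42 above 0, beside a median of 0.01 and 52.0% above 0 over all genes tested. For single hairpins the median was 0.02 for shRNA 1 and 0.03 for shRNA 2, and 39 and 40 of the intervals lay within 0.5. Without control replicate 4, 17 of the 42 differences between adapted and control livers were above 0.

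**Figure D1:**
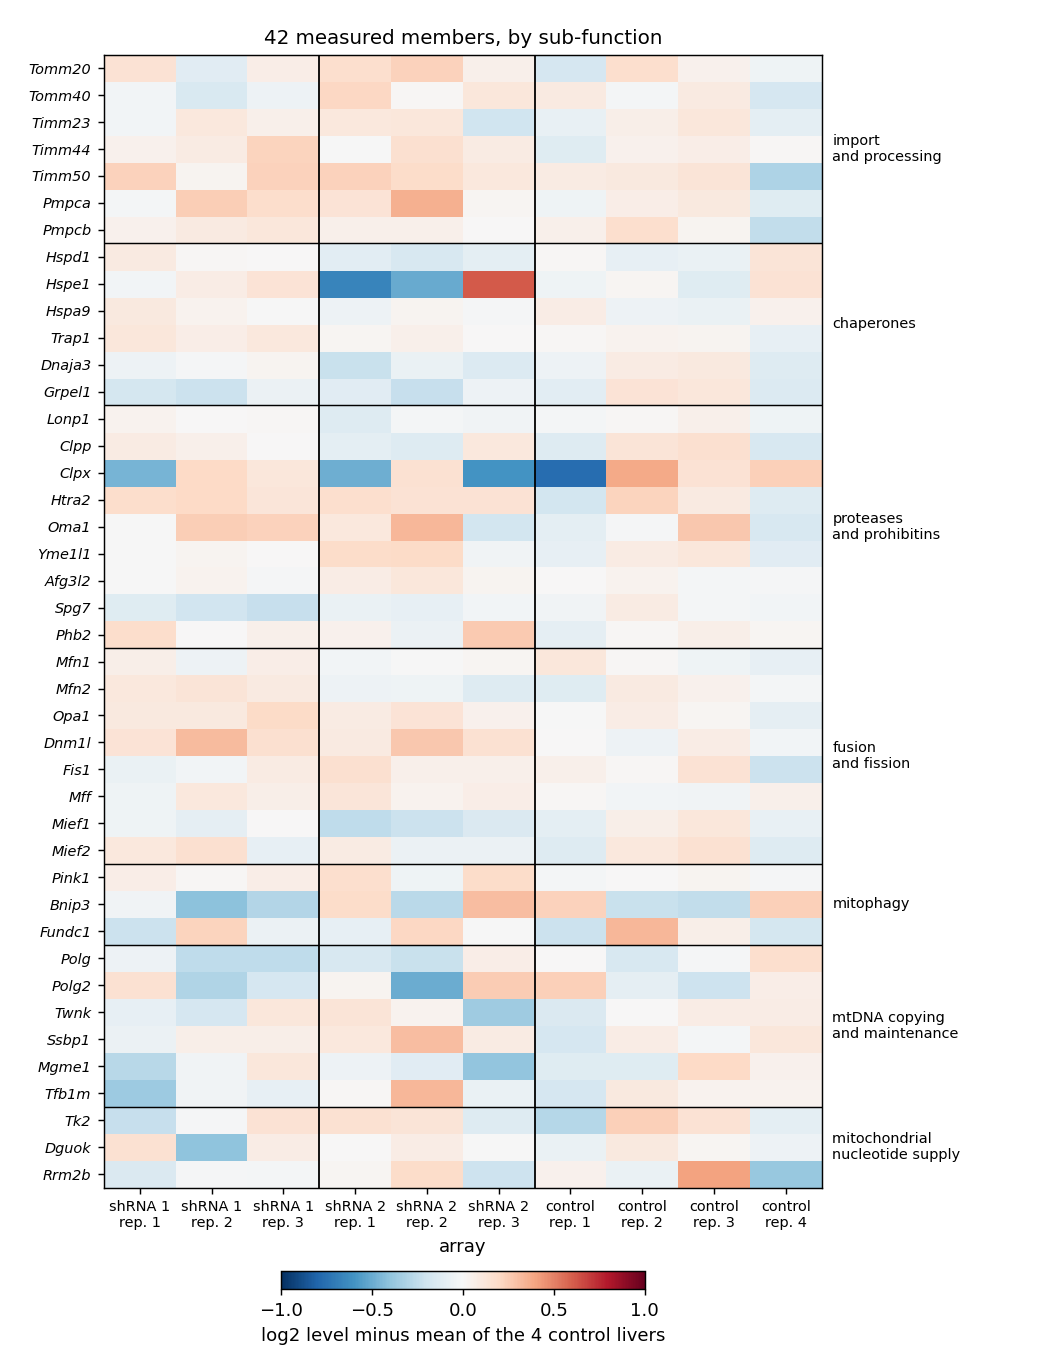
Colour map of the 42 measured genes (rows, grouped by sub-function) in the 10 arrays (columns, shRNA 1, shRNA 2 and control livers); the colour is the log2 level minus the mean of the 4 control livers. Among the strongest colours are those of Clpx in 4 arrays of all 3 groups and of Hspe1 in the 3 shRNA 2 livers.

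**Figure D2:**
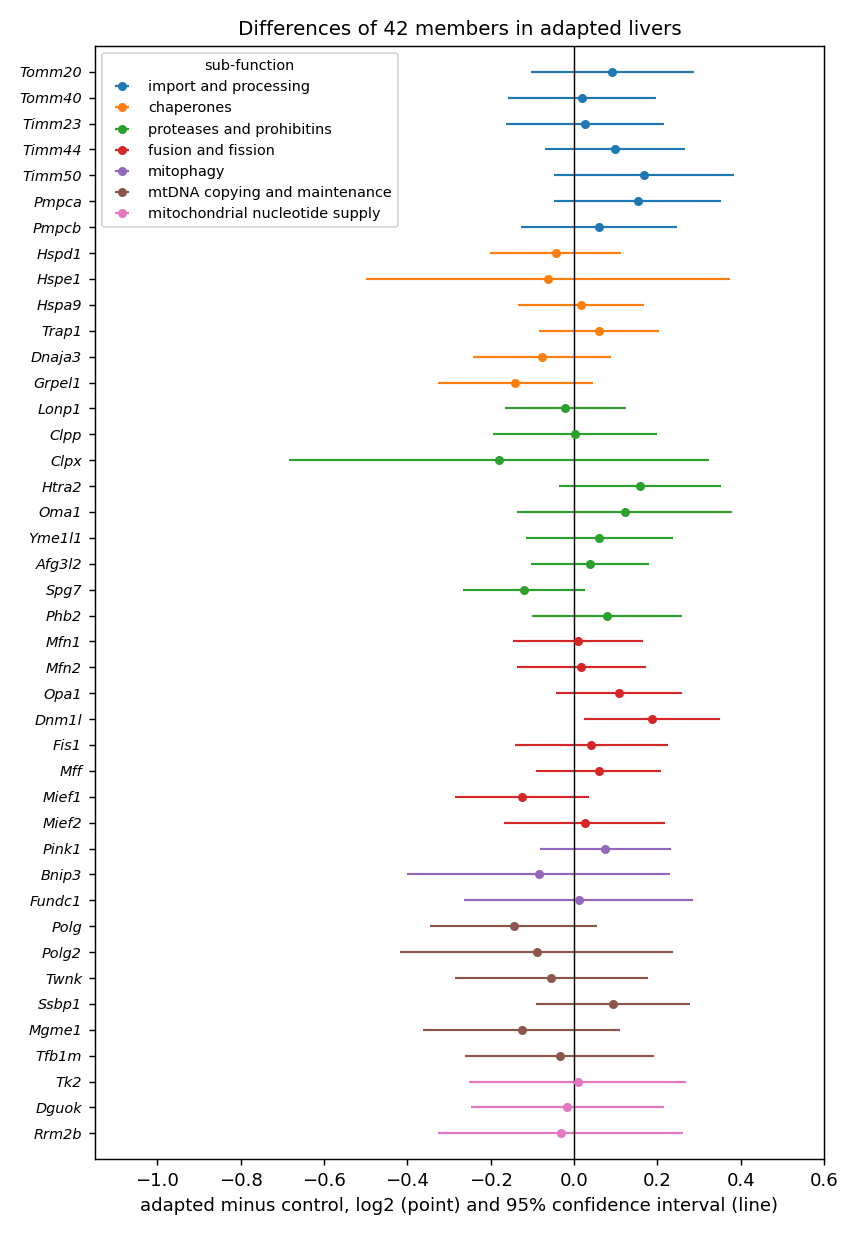
Adapted minus control difference of each of the 42 genes on the log2 scale (point) with its 95% confidence interval (line), coloured by sub-function. The interval of Dnm1l lies above 0, that of Clpx is the widest, from -0.68 to 0.32, and the other 40 include 0.

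Import and processing began the list, with 7 measured genes. All 7 had a higher mean in adapted than in control livers, by 0.02 to 0.17 on the log2 scale with a mean of 0.09, and 0 passed the test. Without control replicate 4, the array with the lowest mean of the 7 genes, 4 of the 7 were higher and the mean was 0.04. With quantile normalization 6 of 7 were higher. Timm50, the receptor that hands proteins to the inner membrane channel, was at log2 7.43, 7.23 and 7.43 in shRNA 1 livers and 7.43, 7.38 and 7.31 in shRNA 2 livers, against 7.28, 7.30, 7.33 and 6.89 in control livers. The groups overlapped, and control replicate 4 stood well below the other controls. The Timm50 difference was 0.17 (standard error 0.10, unadjusted p = 0.115, adjusted p = 0.684 in limma, exact two-sided permutation p = 0.0524, unadjusted), and 0.07 without that array.

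The processing peptidase gave similar small values. Pmpca, its alpha subunit, averaged 7.98 ± 0.14 in adapted livers (SD, n = 6) and 7.83 ± 0.10 in control livers (SD, n = 4), a difference of 0.15 with a standard error of 0.09 (limma adjusted p = 0.695). Its partner Pmpcb, the catalytic subunit, differed by 0.06. Timm44, which tethers the import motor to the channel, differed by 0.10, and Tomm20, the outer membrane receptor, by 0.09. Differences of 0.02 and 0.03 were found for the channel proteins Tomm40 and Timm23.

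Of the 6 matrix chaperones, 4 had a lower and 2 a higher mean in adapted livers, and the mean difference was -0.04. Without shRNA 2 replicate 1 or replicate 2, or with the mean of a gene's clusters, 3 were lower and 3 higher, and the mean ran from -0.08 to -0.02 with an array left out. The hairpins differed in the count: 5 of 6 were lower in shRNA 2 livers than in controls and 2 of 6 in shRNA 1 livers, a contrast that was not tested for the list. Hspd1, the matrix chaperonin that folds imported proteins in a closed chamber, was at log2 10.10, 10.05 and 10.11 in shRNA 2 livers, against 10.22, 10.12, 10.14 and 10.33 in control livers. Every shRNA 2 value lay below every control value. In shRNA 1 livers Hspd1 was at 10.29, 10.22 and 10.21, inside the control range. The difference of shRNA 2 livers from control was -0.12 (standard error 0.09, unadjusted p = 0.181, adjusted p = 0.798 in limma). Its exact two-sided permutation p, unadjusted, was 0.0857, while 35 splits of 3 against 4 arrays allow no p below 0.02857.

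Hspe1 encodes the lid of the same chamber and is transcribed in the opposite direction to Hspd1 from a shared region. The Hspe1 start is at position 55088148 of chromosome 1, on the plus strand (RefSeq, build GRCm38.p6). The 2 annotated starts of Hspd1 lie on the minus strand on either side of it, at 55088243 (95 bases away) and 55087932 (216 bases away). From the nearer start, Hspd1 transcription runs across the Hspe1 start, and only from the farther one do the 2 genes run apart. The stretch below, at chr1:55088048-55088107 on the plus strand, is shown because it lies between the Hspe1 start and the farther Hspd1 start and carries the heat shock element repeats searched for. Capitals mark 3 overlapping matches to TTCNNGAA or GAANNTTC, which begin 89, 84 and 79 bases upstream of the Hspe1 start.
Hspe1 upstream: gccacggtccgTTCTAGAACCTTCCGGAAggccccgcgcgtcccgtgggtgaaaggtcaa

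Despite that shared region the 2 genes did not track each other closely on these arrays. Hspe1 was at log2 7.55, 7.65 and 7.71 in shRNA 1 livers and at 6.92, 7.07 and 8.19 in shRNA 2 livers, against 7.54, 7.60, 7.46 and 7.72 in control livers. Among the shRNA 2 livers, replicates 1 and 2 were below and replicate 3 above all other arrays, a range of 1.27 over the 10 arrays that no other member reached. The shRNA 2 minus control difference was -0.19 with a standard error of 0.24 (limma adjusted p = 0.883), and -0.58 without shRNA 2 replicate 3 (unadjusted p = 0.00024, adjusted p = 0.394 in limma). It was 0.05 without shRNA 2 replicate 1 and -0.02 without shRNA 2 replicate 2, so the sign rests on single arrays. After the group means were removed, Hspd1 and Hspe1 correlated at r = 0.21 and rho = 0.31 over 10 arrays (permutation p = 0.533 for r and 0.388 for rho, adjusted p = 0.710 and 0.477 over 16 pairs), with r = 0.21 without the 2 arrays farthest from the Hspd1 median.

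The import motor and its helpers showed differences of 0.14 or less. Hspa9, the matrix Hsp70 that pulls proteins in, averaged 11.53 ± 0.05 in adapted livers (SD, n = 6) and 11.51 ± 0.07 in control livers (SD, n = 4). Grpel1, which lets that chaperone exchange its nucleotide, averaged 8.998 ± 0.079 in adapted and 9.14 ± 0.14 in control livers, a difference of -0.14 with a standard error of 0.09 (limma adjusted p = 0.701). Dnaja3, its J-domain partner, was at -0.08 (standard error 0.08, adjusted p = 0.830), and Trap1, the matrix Hsp90, at 0.06. Hspe1 apart, the within-group SD of each chaperone was 0.04 to 0.12.

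**Figure D3:**
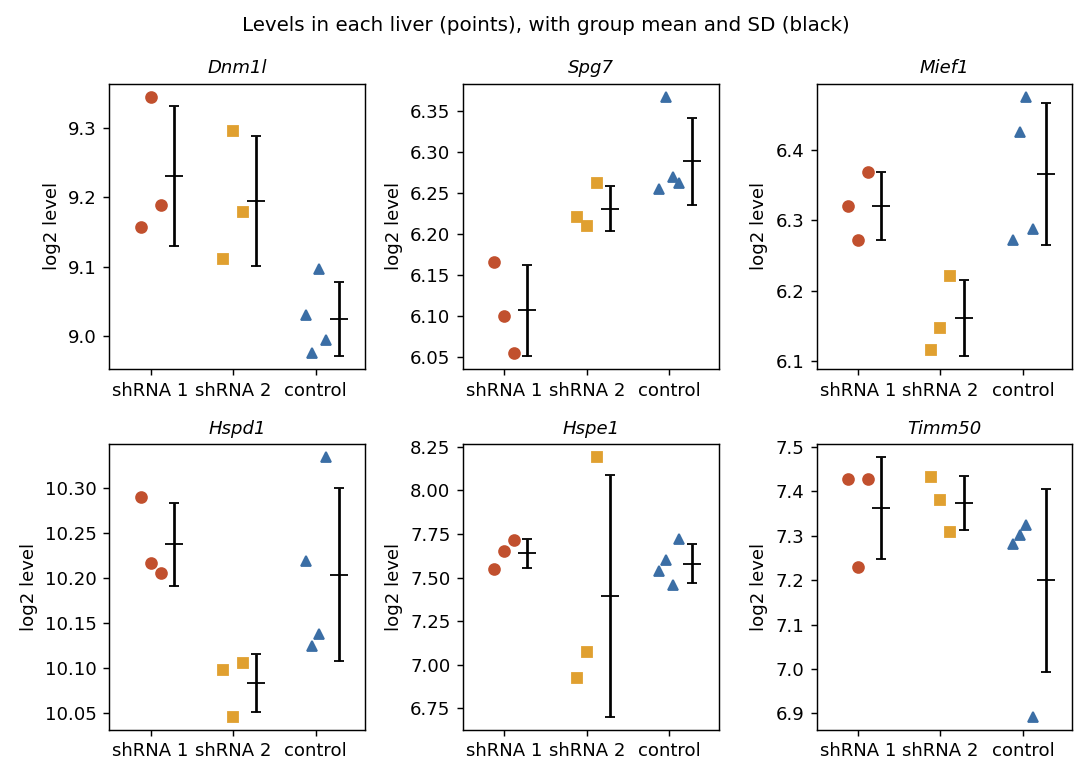
Log2 levels of Dnm1l, Spg7, Mief1, Hspd1, Hspe1 and Timm50 in each liver (points; shRNA 1, shRNA 2 and control from left to right), with the group mean and SD in black; each panel has its own scale, which does not start at 0. All 6 adapted points of Dnm1l lie above the 4 control points, and 1 control point of Timm50 lies at 6.89, below the rest.

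Of 10 proteases and prohibitins, 9 were measured, 6 with a higher and 3 with a lower mean in adapted livers. Spg7, paraplegin, a subunit of the AAA protease that faces the matrix, was at log2 6.17, 6.10 and 6.06 in shRNA 1 livers and 6.22, 6.21 and 6.26 in shRNA 2 livers, against 6.25, 6.37, 6.27 and 6.26 in control livers. All 3 shRNA 1 values lay below every control and every shRNA 2 value, whereas shRNA 2 values overlapped the controls. The shRNA 1 minus control difference was -0.18 (standard error 0.08, unadjusted p = 0.0422, adjusted p = 0.599 in limma), and its exact two-sided permutation p was 0.0286, the smallest that 3 against 4 arrays can give. Between the hairpins the difference was -0.12 with an adjusted p of 0.911. Afg3l2, which builds the same protease, differed by 0.04 between adapted and control livers.

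Htra2, a serine protease of the intermembrane space, averaged 7.21 ± 0.03 in adapted livers (SD, n = 6) and 7.05 ± 0.19 in control livers (SD, n = 4). Its 6 adapted values lay between 7.17 and 7.25, and the controls were at 6.87, 7.27, 7.14 and 6.92, so that the spread was in the controls. The difference was 0.16 with a standard error of 0.09 (limma adjusted p = 0.668). Lonp1, the main soluble protease of the matrix, differed by -0.02 (standard error 0.07), and Clpp, the peptidase of the CLPXP complex, by 0.00 (standard error 0.09). The stress-activated protease Oma1, which cleaves OPA1, stood at 0.12, the AAA protease Yme1l1, which also cleaves OPA1, at 0.06 and the scaffold protein Phb2 at 0.08.

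Clpx, which unfolds substrates and feeds them to CLPP, had one of the widest spreads and is described for that reason, having been picked after its values were seen. It was at log2 8.82, 9.49 and 9.40 in shRNA 1 livers and 8.79, 9.43 and 8.69 in shRNA 2 livers, against 8.52, 9.66, 9.43 and 9.52 in control livers. In 4 arrays it lay between 8.52 and 8.82 and in 6 between 9.40 and 9.66, with both ranges found in every group. The adapted and control means differed by -0.18 (standard error 0.23, limma adjusted p = 0.881). Clpp, its partner, lay between 7.60 and 7.92 in all 10 arrays and did not divide in this way.

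The same 4 arrays stood apart in clock genes. A clock score was formed for each array from 8 measured genes of the circadian clock, as the mean centred log2 level of Dbp, Tef, Nr1d2, Per3 and Ciart minus that of Arntl, Npas2 and Clock, which peak at the opposite time of day. It was 0.61 to 1.65 in the 4 arrays with low Clpx and -1.04 to -0.48 in the other 6. The slope of each gene on this score was fitted with the 3 groups in the same limma model, a test added after the values were seen. Of the 42 members 1 passed, Clpx, at -0.43 per unit of score (standard error 0.05, adjusted p = 0.0117), beside 0.015% of 13300 genes. The call was lost without control replicate 1 (adjusted p = 0.401), shRNA 1 replicate 1 (0.0572), shRNA 1 replicate 2 (0.0557) or shRNA 2 replicate 2 (0.0600). The slope rests on the step between the ranges: inside the range of 6 arrays r was -0.01 and rho 0.09 (exact permutation p = 0.986 and 0.919), and the range of 4 is too small to test. The time of day of collection is not in the labels, and its part in these values was not tested.

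Some other members leaned with the score without passing. At an unadjusted p under 0.05 there were 2 of 42 members with a positive slope, Polg2 (0.24, adjusted p = 0.228) and Bnip3 (0.21, adjusted p = 0.279), beside 4.91% of all genes. The negative slopes at that level were 6 of 42, beside 6.88% of all genes, and besides Clpx they were Tfb1m (-0.16), Tk2 (-0.15), Fundc1 (-0.15), Oma1 (-0.13) and Ssbp1 (-0.10), with adjusted p-values of 0.247 to 0.405 in limma. With the score as a covariate the Clpx difference between adapted and control livers was -0.02 (standard error 0.08).

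**Figure D4:**
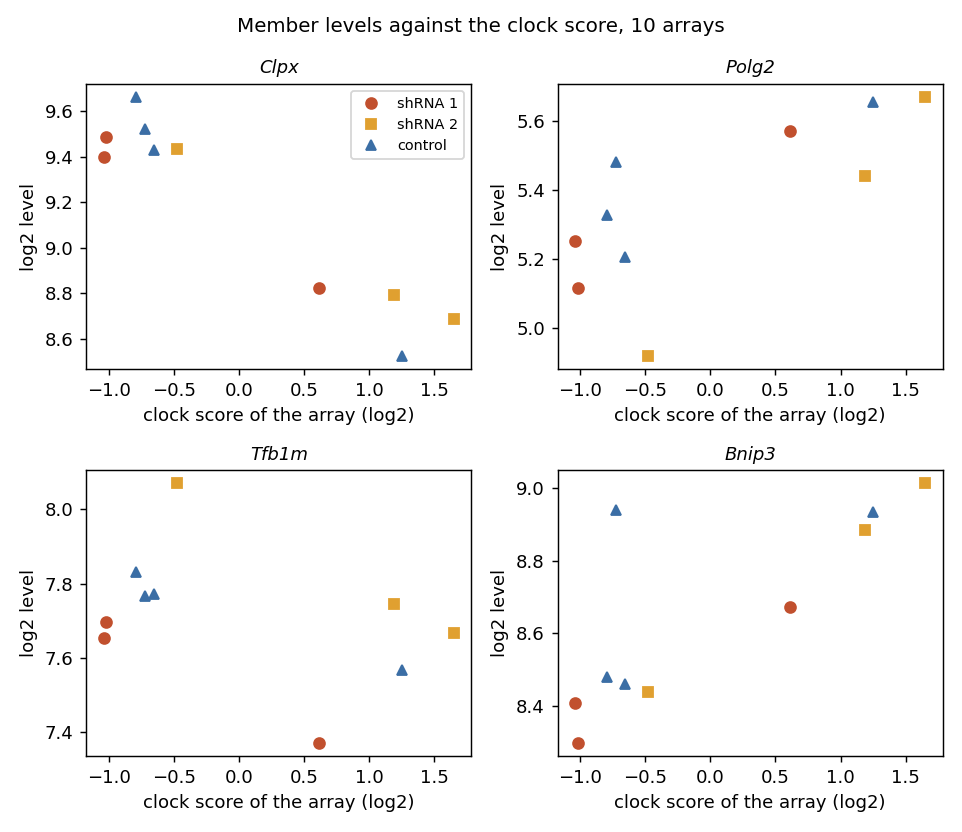
Log2 levels of Clpx, Polg2, Tfb1m and Bnip3 (vertical axes, each on its own scale) against the clock score of the array (horizontal axis, log2 units) in shRNA 1, shRNA 2 and control livers, 1 point per array. In the Clpx panel 4 points, from all 3 groups, sit at 8.52 to 8.82 with scores above 0.6, and 6 sit at 9.40 to 9.66 with scores below -0.4.

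Promoter windows were searched for short motifs on both strands, and 39 of the 44 genes had such a window in the RefSeq table (250 bases before to 50 after the start, GRCm38.p6). The core of the site for NRF1, a regulator of nuclear genes for mitochondria, is GCGCATGCG. It occurred in 2 of 39 genes (5.13%), Clpx and Opa1, against 1.95% of 27025 genes with a window. Those windows are printed from 200 bases upstream of the start, Clpx at chr9:65294060-65294259 and Opa1 at chr16:29579134-29579333, both on the plus strand, because they hold the only such matches among the members. Capitals mark the match, 87 bases upstream in Clpx, and in Opa1 overlapping matches on both strands at 59 and 58 bases upstream.
Clpx promoter: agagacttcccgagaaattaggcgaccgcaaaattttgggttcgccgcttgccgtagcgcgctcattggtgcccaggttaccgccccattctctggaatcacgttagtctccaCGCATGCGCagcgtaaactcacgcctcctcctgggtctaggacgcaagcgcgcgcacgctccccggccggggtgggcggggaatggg
Opa1 promoter: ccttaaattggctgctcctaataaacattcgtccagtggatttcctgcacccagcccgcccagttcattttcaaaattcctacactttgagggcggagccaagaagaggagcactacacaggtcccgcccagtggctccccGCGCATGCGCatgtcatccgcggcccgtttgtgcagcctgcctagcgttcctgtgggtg

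The heat shock element repeat TTCNNGAA or GAANNTTC was in 6 of 39 (15.4%) against 17.0% of all genes, and CCAAT in 18 (46.2%) against 41.1%. The amino acid response element TGATGNAAT was in 0 against 1.08%. Clock motifs were added after the Clpx values were seen: the E-box CACGTG was in 6 (15.4%) against 8.09%, the D-box TTANGTAA in 0 against 2.72% and the ROR core AGGTCA in 7 (17.9%) against 18.1%. Clpx held none of these 3. A match describes letters in this window and no binding.

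Fusion and fission held 8 genes, 7 with a higher mean in adapted livers, by a mean of 0.04 for the 8. Without control replicate 4 the count was 4 of 8 and the mean 0.02. Dnm1l, the dynamin DRP1 that constricts mitochondria for division, was at log2 9.16, 9.35 and 9.19 in shRNA 1 livers and 9.11, 9.30 and 9.18 in shRNA 2 livers, against 9.03, 8.98, 9.10 and 8.995 in control livers. All 6 adapted values lay above all 4 controls, and Dnm1l was the 1 member of 42 whose adapted and control values did not overlap, beside 1.88% of all genes tested. The difference was 0.19 (standard error 0.07, unadjusted p = 0.0276, adjusted p = 0.521 in limma), and the exact two-sided permutation p over 210 splits was 0.00952. By hairpin it was 0.21 for shRNA 1 and 0.17 for shRNA 2.

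The adaptors that bring DRP1 to the outer membrane had smaller or opposite differences, which were not tested against that of Dnm1l. Mief1 was at log2 6.12, 6.15 and 6.22 in shRNA 2 livers, against 6.27, 6.43, 6.48 and 6.29 in control livers, with no overlap. In shRNA 1 livers it was at 6.32, 6.27 and 6.37, inside the control range. The shRNA 2 minus control difference was -0.20 (standard error 0.09, unadjusted p = 0.0372, adjusted p = 0.631 in limma, exact two-sided permutation p = 0.0571). Mief2 stood at 0.03 between adapted and control livers, Mff at 0.06 and Fis1 at 0.04.

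Among the fusion genes, Opa1, which joins inner membranes, averaged 8.53 ± 0.05 in adapted livers (SD, n = 6) and 8.42 ± 0.07 in control livers (SD, n = 4). Of 6 adapted values 5 lay above all controls. The difference of 0.11 had a standard error of 0.07 (unadjusted p = 0.146, adjusted p = 0.724 in limma). Its exact permutation p, which is not adjusted for the number of members, was 0.0143. The mitofusins, which join outer membranes, had adapted minus control differences of 0.01 (Mfn1, standard error 0.07, 95% interval -0.15 to 0.17) and 0.02 (Mfn2, standard error 0.07, 95% interval -0.14 to 0.17). Mfn2 was at 7.86, 7.87 and 7.84 in shRNA 1 livers and at 7.69, 7.71 and 7.62 in shRNA 2 livers, without overlap between hairpins. That difference was 0.18 with a standard error of 0.09 (limma adjusted p = 0.848), and 3 against 3 arrays allow no exact p below 0.1. Such separation was not particular to Mfn2: of the 42 members 9 did not overlap between hairpins. Against controls 5 did not overlap for shRNA 1 and 3 for shRNA 2. The share over all genes was not counted for these comparisons of single hairpins. These counts, and the separations of single members by hairpin, thus have no background to be read against.

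Mitophagy was represented by 3 measured genes. Pink1, the kinase that marks depolarised mitochondria, averaged 8.59 ± 0.09 in adapted livers (SD, n = 6) and 8.52 ± 0.02 in control livers (SD, n = 4), a difference of 0.08 with a standard error of 0.07 (limma adjusted p = 0.830). Bnip3, an outer membrane receptor for mitophagy that responds to low oxygen, was at log2 8.67, 8.30 and 8.41 in shRNA 1 livers and 8.89, 8.44 and 9.01 in shRNA 2 livers, against 8.94, 8.48, 8.46 and 8.94 in control livers. The groups overlapped in part, with 3 of the 6 adapted values below every control and 1 above every control, and all 4 arrays with a clock score above 0 were among the 5 highest for Bnip3. Adapted minus control was -0.08 (standard error 0.14, adjusted p = 0.918), and Fundc1, another such receptor, stood at 0.01.

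The genes that copy and maintain mtDNA were 6, of which 5 had a lower mean in adapted livers, with a mean difference of -0.06 and 0 past the test. Without shRNA 2 replicate 3 the count was 3 of 6, without control replicate 4 the mean was -0.03, and with the mean of a gene's clusters 6 of 6 were lower, by a mean of -0.09. Polg, the catalytic subunit of the mtDNA polymerase, was at log2 6.78, 6.58 and 6.58 in shRNA 1 livers and 6.67, 6.61 and 6.90 in shRNA 2 livers, against 6.84, 6.67, 6.82 and 7.00 in control livers. Its groups overlapped, with a difference of -0.14 (standard error 0.09, limma adjusted p = 0.721) and -0.09 without control replicate 4. Polg2, the accessory subunit, stood at -0.09, Twnk, the mtDNA helicase, at -0.06 (standard error 0.11) and Mgme1, a nuclease that trims mtDNA ends, at -0.13 (standard error 0.11, adjusted p = 0.801). Tfb1m, a methyltransferase of mitochondrial ribosomal RNA, was at -0.03. Ssbp1, the single-strand binding protein, was the 1 of the 6 with a higher mean, at 0.09.

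A further 3 enzymes supply nucleotides for mtDNA, with a mean difference of -0.01 that ran from -0.07 to 0.05 with an array left out. Tk2 and Dguok, the mitochondrial deoxynucleoside kinases, were at 0.01 and -0.02, and Rrm2b, a ribonucleotide reductase subunit used outside S phase, was at -0.03 (standard error 0.13, limma adjusted p = 0.972). Within groups they scattered more widely. Rrm2b was at log2 5.70, 5.83 and 5.82 in shRNA 1 livers and 5.86, 6.03 and 5.64 in shRNA 2 livers, against 5.89, 5.78, 6.24 and 5.47 in control livers. Dguok was at 5.61 in shRNA 1 replicate 2 and between 5.95 and 6.17 in the other 9 arrays.

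Genes that work in 1 complex or step were compared as pairs across arrays after the group means were removed. Of 19 listed pairs 16 were tested. The pairs of Phb and Bnip3l lack a measured gene, and Clpp with Clpx was left out because the arrays fall into separate ranges of Clpx. In permutations across all 10 arrays, with p-values adjusted over the 16 pairs, 2 passed for Pearson's r, at an adjusted p of 0.0486. Clpp with Clpx was left out after the Clpx values were seen, and calls this close to the threshold may depend on that choice. Oma1 and Yme1l1, the proteases that cleave OPA1, correlated at r = 0.83 (permutation p = 0.00355, adjusted p = 0.0486) and rho = 0.81 (permutation p = 0.00669, adjusted p = 0.0535), and r was 0.68 without the 2 arrays farthest from the Oma1 median. With arrays permuted only within the groups, the exact permutation p was 0.00116, the smallest that 864 orders can give, with an adjusted p of 0.0185.

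Hspa9 and Grpel1, the import Hsp70 and its exchange factor, ran in opposite directions. Their r was -0.84 (permutation p = 0.00608, adjusted p = 0.0486) and their rho -0.84 (permutation p = 0.00369, adjusted p = 0.0535), with r = -0.78 without the 2 farthest arrays. Within groups the exact permutation p of this pair was 0.0521, with an adjusted p of 0.278. With levels as deposited neither pair passed (adjusted p = 0.144 for both). Across all 861 pairs of members the median size of r was 0.386, and 48 pairs (5.57%) reached 0.8 or more, so values of this size also occur between members that share no complex. Each pair is read from the same 10 arrays and shares their scaling.

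**Figure D5:**
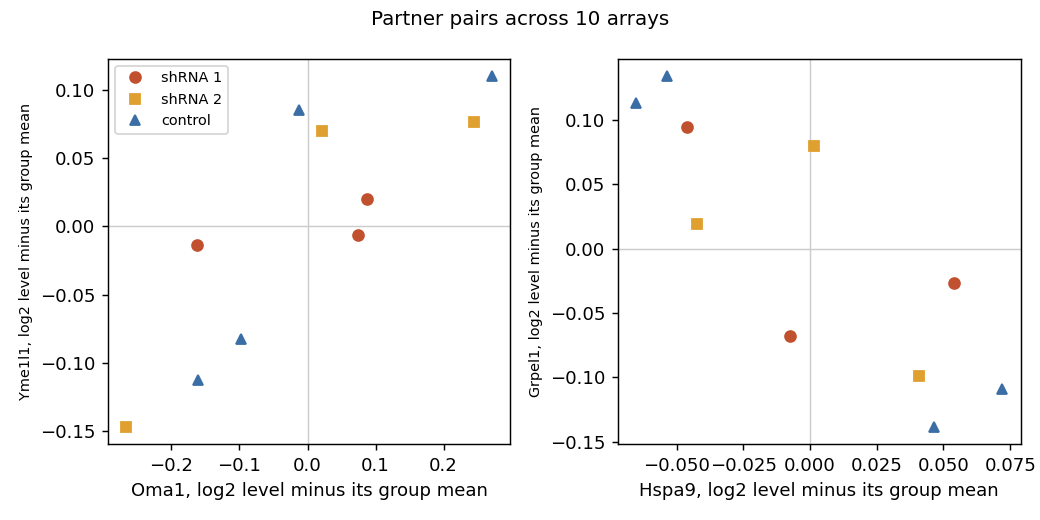
Log2 level minus the group mean in each array for Yme1l1 against Oma1 (left) and for Grpel1 against Hspa9 (right), 1 point per array in shRNA 1, shRNA 2 and control livers. The points run upward on the left (r = 0.83) and downward on the right (r = -0.84).

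In the wider pathways 0 genes passed in any list for adapted minus control. Of other import and sorting genes 14 of 23 tested had a higher mean (median difference 0.03), led by Samm50, the core of the sorting machinery for outer membrane barrels, at 9.14 ± 0.10 in adapted livers (SD, n = 6) and 8.88 ± 0.09 in control livers (SD, n = 4). Its difference was 0.26 with a standard error of 0.08 (limma adjusted p = 0.427). The next largest statistics of that list were of genes with a lower mean, Timm9 at -0.18 and Timm13 at -0.15 (limma adjusted p = 0.619 and 0.688). Of other proteostasis genes 12 of 16 were higher (median 0.08), with Mipep, a peptidase that finishes the trimming of imported proteins, at 0.26 (adjusted p = 0.466) and Ppif, the matrix cyclophilin, at 0.41 (adjusted p = 0.521). Dnajc11, between these 2 in the size of its statistic, was lower, at -0.19 (limma adjusted p = 0.521). At an unadjusted p under 0.05 in limma, 2 of the 16 were higher and 1 lower, beside 4.86% of all genes higher and 3.51% lower. Of other dynamics and contact genes 9 of 17 were higher (median 0.02), and of other mitophagy genes 10 of 15 (median 0.05).

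Of other genes for mtDNA, its transcription and its nucleotides, 16 of 25 were higher (median 0.04). Slc25a4, an ADP/ATP carrier of the inner membrane, had the smallest adjusted p of that list, with 6.05 ± 0.16 in adapted livers (SD, n = 6) and 5.68 ± 0.14 in control livers (SD, n = 4), a difference of 0.37 (standard error 0.09, adjusted p = 0.297 in limma). Slc25a5, the carrier prominent in liver, stood at 0.13. Genes of the mitochondrial and integrated stress response leaned lower, with 9 of 14 below control and a median of -0.11. At an unadjusted p under 0.05, 4 of the 14 were lower and 1 higher, beside 3.51% of all genes lower and 4.86% higher. Atf5, a transcription factor of that response, averaged 8.96 ± 0.15 in adapted livers (SD, n = 6) and 9.41 ± 0.26 in control livers (SD, n = 4), a difference of -0.45 (adjusted p = 0.345). Mthfd2 had the largest statistic of the list, at -0.83 (standard error 0.22, limma adjusted p = 0.345). It averaged 4.26 ± 0.30 in adapted livers (SD, n = 6) and 5.08 ± 0.57 in control livers (SD, n = 4). Psat1 was at -0.41 (limma adjusted p = 0.433), with means of 3.96 and 4.37, near the level filter, as was the adapted mean of Mthfd2.

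Cytosolic heat shock proteins differed by hairpin in their counts. In shRNA 1 livers 11 of 12 tested had a higher mean than in controls (median 0.18), and in shRNA 2 livers 2 of 12 (median -0.13). Between the hairpins 6 of 12 were higher in shRNA 1 livers at an unadjusted p under 0.05, beside 3.32% of all genes. After adjustment 0 passed (smallest adjusted p = 0.532 in limma). The same contrast had 5 of 6 matrix chaperones higher, by a median of 0.10, beside a median of 0.00 over all genes tested. Whether the cytosolic and matrix lists moved together was not tested.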

How the data were processed

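The deposited values are log2 expression levels per transcript cluster, made by the authors with Affymetrix Expression Console per the submitters' processing notes. Not given in the sources used here are its version, background correction, normalization and genome build; the scale was judged from the range of the values, which were used as deposited. The platform annotation gives 1 gene symbol for 23521 of 41345 clusters, several for 1814 and none for 16010. Each gene was read from its cluster of highest mean, and genes in the lowest 40 percent of mean levels were dropped, leaving 13308.

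One fit in limma 3.58.1 (R 4.3.3; lmFit, contrasts.fit, eBayes) over all 10 arrays in 3 groups, taken from the sample titles, gave the 4 comparisons, with two-sided p-values adjusted by Benjamini-Hochberg over all genes tested. The mean of the hairpin groups is the adapted level in the fit. Exact permutation tests of group differences used all splits and were not adjusted for the number of tests. Correlations used 100000 resamples (Python 3.11.15, scipy 1.17.1, and matplotlib 3.10.9 for figures). Simulated arrays with known shifts were used to test the model beforehand. A shift of 0.5 log2 units passed in 57.7% of shifted genes for adapted minus control and 40.2% for shRNA 1 minus control. Shifts of that size or less can thus be missed.

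The members and lists were chosen with earlier results of these data known. Named with values were members at an unadjusted p under 0.05 in any comparison, the 2 with the largest statistic for adapted minus control in each sub-function, and a set of central genes; from other lists, up to 3 with the largest statistic. Alternatives were another scaling, level filter, cluster rule, prior, array weights, a replicate block, a clock covariate, fewer groups and each array left out. Promoter sequences are RefSeq's, build GRCm38.p6.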

Additional observations from a re-analysis of the deposited data

Results flagged for a closer look

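Timm50 in control replicate 4 was at log2 6.89, against 7.28 to 7.33 in the other 3 controls, a gap to the nearest of them of 0.898 of the range of the group. Spg7 in control replicate 2 was at log2 6.37, against 6.25 to 6.27 in the other 3 controls, with a gap of 0.862 of the range. Both exceed Dixon's 95% critical value for 4 samples. Over 51 groups of values checked these were the 2 that did, and chance gives about 1 in 20.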

How the results depend on the processing

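The count of members past the adjusted threshold was 0 in each of the 4 comparisons under all 21 settings, over 3344 fits of single members, with a smallest adjusted p of 0.195 in limma (Hspe1, shRNA 1 minus shRNA 2, without shRNA 2 replicate 3, where the difference was 0.64). Counts over all genes moved. For adapted minus control 1 gene passed, 0 with a filter at the 60th percentile or with 2 groups, 6 with an intensity trend and robust prior and 1 to 3 with an array left out. For shRNA 1 minus control 0 passed (1050 at an unadjusted p under 0.05), 1 with quantile normalization, 15 with the filter at the 60th percentile, 7 with the mean of a gene's clusters, 19 with array weights, 30 with the trend, 2 with the clock score covariate and 0 to 11 with an array left out. For shRNA 2 minus control 1 passed, 0 with the 60th percentile filter and 1 to 3 with an array left out. For shRNA 1 minus shRNA 2 it was 2, then 1 with quantile normalization, the 60th percentile filter or the clock covariate, 4 with median centring, 6 with array weights, 7 with the trend and 1 to 4 with an array left out. The cause was not tested. The deviations of same-numbered arrays from their group means correlated at r of -0.25 to 0.27 over 9 pairs. With 3 or 4 arrays a group, this check cannot tell whether equal numbers mark paired samples. With the replicate block, which leaves control replicate 4 without weight because no other array bears its number, the count for shRNA 1 minus shRNA 2 was 4, the median difference of the members between adapted and control livers was -0.02 and no call among members changed. That median ran from -0.02 to 0.05 with an array left out. For the clock slope 0 to 1 members passed with an array left out. Of the partner pairs 2 passed, 0 for levels as deposited or Spearman's rho and 1 when permuted within groups. Of 1996 alternative values of 25 named genes, 111 changed sign, 12 of them with a size over 0.1, and none was a call. The unadjusted p of Dnm1l for adapted minus control was 0.0674 with the replicate block and, with 1 array left out, 0.0702 (control replicate 2), 0.0561 (control replicate 4), 0.0657 (shRNA 1 replicate 2) or 0.0581 (shRNA 2 replicate 2). That of Mief1 for shRNA 2 minus control was over 0.05 in 9 of 20 alternatives, up to 0.122 with median centring, and that of Spg7 for shRNA 1 minus control in 11 of 20, up to 0.129 without shRNA 1 replicate 3. A difference of Dnaja3 between adapted and control livers turned to 0.08 with the mean of its clusters.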

Other observations

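Dnaja3 has 3 transcript clusters of its own and Ssbp1 has 2, and they did not run the same way. For adapted minus control the dimmer Dnaja3 clusters were at 0.18 and 0.14, against -0.08 for the one used, and the dimmer Ssbp1 cluster was at -0.29, against 0.09 for the one used. The dimmer Dnaja3 clusters had mean log2 levels of 4.07 and 3.43, near or under the level filter.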
